A study of Mus musculus with 8 samples.

Results

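The 9 heat shock chaperone genes described here were measured in mouse cheek skin that had received an itch-inducing peptide, with and without keratinocyte Tbx20. They are Hspa1a, Hspa1b, Hspa5, Hspa8, Hsp90aa1, Hsp90ab1, Hsph1, Dnajb1 and Hspb1, found by gene symbol among the 18901 genes of the deposited table. All 9 of 9 were present and had enough reads to be tested. RNA-seq had been performed on 4 knockout mice, TBX20fl/fl;K14-Cre, and 4 control mice, TBX20fl/fl, to ask how loss of the T-box transcription factor TBX20 from keratinocytes changes the skin transcriptome after brain natriuretic peptide (BNP). Both groups carried the floxed allele, and the knockout mice carried Cre recombinase under the keratin 14 promoter in addition, so that only cells that use this promoter, mainly keratinocytes, lose Tbx20. All mice were females aged 7 weeks on C57BL/6J and C57BL/6N backgrounds. They received 10 µg of BNP by intradermal injection, and tissue was taken 5 hours after a 30-minute recording. A vehicle-injected cheek was not analysed here, so the values describe genotype within BNP-injected skin.

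Heat shock proteins keep other proteins folded. HSP70 proteins bind exposed hydrophobic stretches of unfolded clients, J proteins (HSP40) such as DNAJB1 deliver clients and stimulate the HSP70 ATPase, and HSP110 proteins such as HSPH1 exchange the nucleotide. HSP90 proteins take over partly folded clients such as kinases and steroid receptors, and small heat shock proteins such as HSPB1 hold unfolded proteins without using ATP. Many of these genes are switched on by heat shock factor 1 (HSF1), which binds inverted repeats of the letters GAA, whereas Hspa5 (BiP), the HSP70 of the endoplasmic reticulum, responds to unfolded protein in that compartment.

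The libraries held 19260856 to 19880654 counts in the knockout mice and 16056282 to 19617762 in the control mice. Each mouse is called knockout or control mouse 1 to 4, after its label. A pair below is a knockout and a control mouse of the same number, although no pairing of the mice was stated. Control mouse 2 stood apart, with a TMM scaling factor of 0.735 against 1.01 to 1.04 in the other control mice. In it the deviation of genes from their mean ran against transcript length (Spearman rho -0.782 over 13298 genes, described without a test). The rho was 0.455, -0.353 and 0.430 in control mice 1, 3 and 4. In knockout mice 1 to 4 it was 0.527, 0.262, 0.623 and 0.611. This length trend was thus not confined to control mouse 2 and ran partly with genotype. The targeted gene could not check the labels, since Tbx20 had 0 to 2.09 counts in the knockout mice and 0 to 3.01 in the control mice, at or about the floor of 3 counts. Keratinocyte markers were plentiful, with Krt14 at 1075 to 1305 FPKM in the knockout mice and 1084 to 1572 in the control mice, and 9 of 12 of these markers had a higher and 3, Krt14 included, a lower fitted value (median log2 fold change 0.074). Flg was at 0.88 (edgeR unadjusted p = 0.0344), or 0.40 with the length trend removed. Skeletal muscle RNA was present as well. The summed FPKM of 15 muscle markers was 13887 to 22591 in the knockout mice and 18655 to 27611 in the control mice, while 7 of the 15 had a higher fitted value (median -0.0057), or 9 with the length trend removed. All 10 neutrophil markers were lower in the knockout mice, with a summed FPKM of 221 to 429 against 449 to 1147, 7 of them with an unadjusted edgeR p under 0.05, where 5.91% of 17124 genes were lower at that p. Of 7 fibroblast markers 4 had a higher and 3, Dcn at -0.64 included, a lower fitted value (median 0.37). Col1a1 was at 1.10 and Col1a2 at 0.75, both higher in FPKM in all 4 pairs, where 22.2% of 15970 genes were. With the length trend removed 3 of the 7 were higher (median -0.0026). Col1a1 was then at 0.82, Col1a2 at 0.41 and Dcn at -0.39. Of 9 macrophage markers 6 had a lower fitted value (median -0.12), with Fcgr1 at -0.74 and C1qb at -0.59, and 3 a higher one. With the length trend removed 5 of the 9 were higher (median 0.034), with Fcgr1 at -0.71 and C1qb at -0.14. T cell markers had a lower fitted value in 5 of 6 (median -0.48), or a median of -0.26 with the length trend removed. No marker of these lists was at 0 in any mouse. With the mean of the muscle markers as a covariate the edgeR log2 fold change was 0.72 for Hspa1a and 0.46 for Hspa1b, and the part of other cell types in the chaperone values was not tested. In bulk skin, fewer cells of a type and less RNA per cell cannot be told apart.

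Hspa1a and Hspa1b, which encode the stress-inducible cytosolic HSP70, had the highest fitted log2 fold changes of the 9 genes in edgeR with genotype alone. Hspa1a was at 43.68, 21.33, 21.41 and 23.99 FPKM (a level corrected for gene length and sequencing depth) in knockout mice 1 to 4. In control mice 1 to 4 it was at 23.95, 10.69, 13.32 and 15.66 FPKM. Knockout mouse 1 lay far above the other 7 mice, and control mouse 1 was as high as the other knockout mice, so the groups overlapped. The means were 27.6 ± 10.8 and 15.9 ± 5.73 FPKM (SD, n = 4 each), a ratio of 1.74, with a two-sided exact permutation p of 0.0857. Hspa1b was at 43.08, 31.10, 29.28 and 33.67 FPKM in the knockout mice and at 31.32, 15.86, 22.31 and 23.84 in the control mice. Its groups overlapped through control mouse 1, and its means were 34.3 ± 6.14 and 23.3 ± 6.35 FPKM (SD, n = 4 each), with an exact permutation p of 0.0857. The smallest p that 4 mice against 4 allow is 0.0286.

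**Figure D1:**
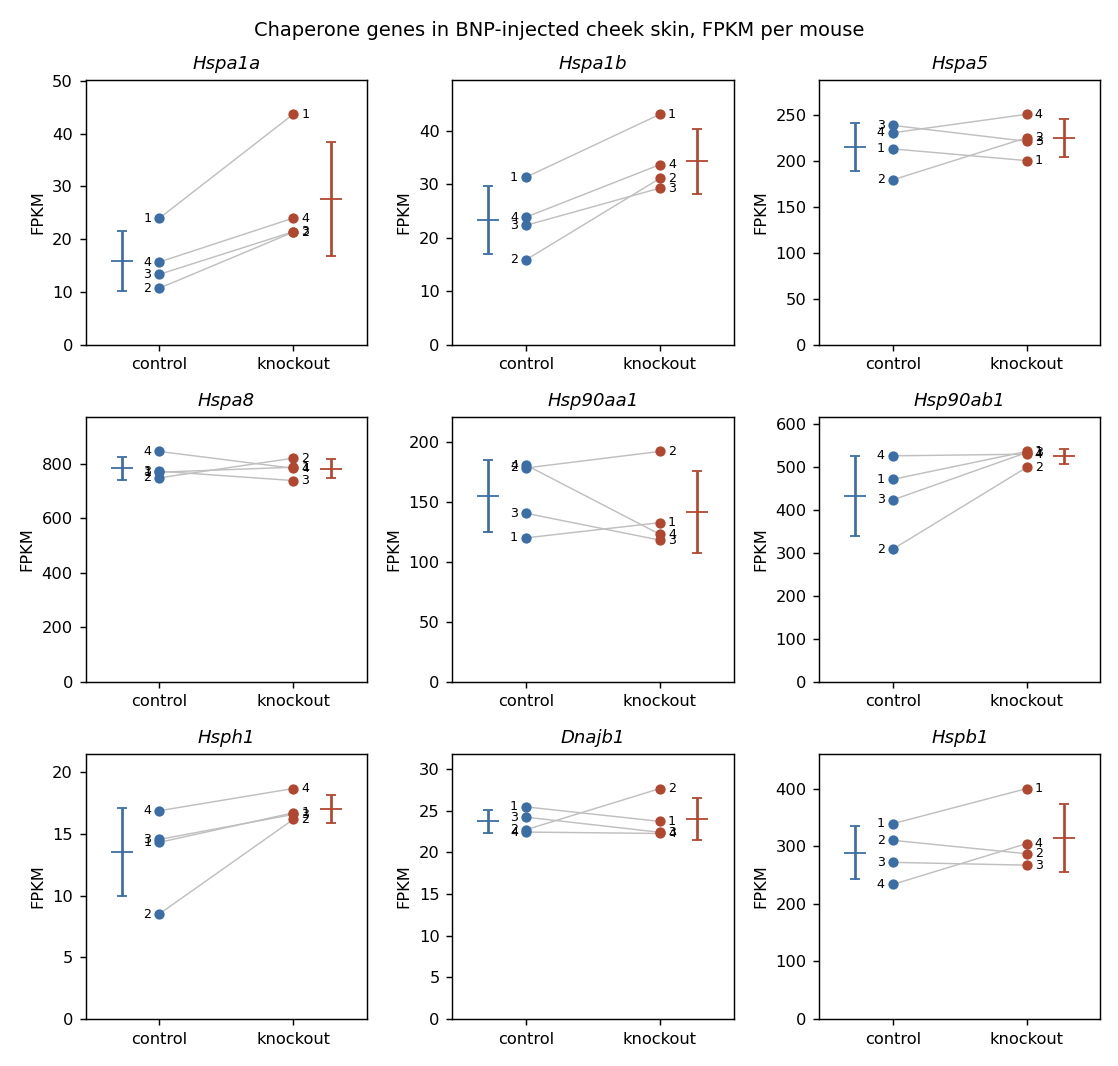
FPKM of the 9 chaperone genes in each mouse, with control mice in blue and knockout mice in red, replicate numbers beside the points, grey lines joining mice of the same number, and bars for mean ± SD (n = 4). Hspa1a, Hspa1b, Hsp90ab1 and Hsph1 were higher in the knockout mouse of all 4 pairs in FPKM, and the groups overlapped for every gene. In CPM scaled for library size and the TMM factor of each mouse, which FPKM does not apply, Hsp90ab1 was higher in 3 of 4.

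In the edgeR quasi-likelihood fit over 17124 genes, the log2 fold change (knockout minus control) was 0.66 ± 0.289 (SE) for Hspa1a, with an unadjusted p of 0.0461 and an adjusted p of 0.498. For Hspa1b it was 0.42 ± 0.184 (SE), with an unadjusted p of 0.0478 and an adjusted p of 0.498. Neither gene therefore passed the adjusted threshold. With each of the 8 mice left out in turn, the unadjusted edgeR p was 0.05 or more in 5 cases for Hspa1a and in 6 for Hspa1b, and ranged from 0.0155 to 0.165 and from 0.0170 to 0.156. It was lost for both without knockout mouse 1 or 4 or control mouse 2, 3 or 4, and for Hspa1b also without knockout mouse 2. The log2 fold change of Hspa1a was still 0.73 without knockout mouse 4 and 0.61, 0.57 and 0.62 without control mouse 2, 3 and 4. Leaving out knockout mouse 1 took the Hspa1a value to 0.33 (edgeR unadjusted p = 0.165) and the Hspa1b value to 0.27. Leaving out both mice numbered 1, an alternative added after the values were seen, gave 0.54 for Hspa1a (edgeR unadjusted p = 0.0129).

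Both genes lie on the minus strand of chromosome 17 (GENCODE on GRCm38), Hspa1a at chr17:34969190-34972156 and Hspa1b at chr17:34956436-34959238. The deposited table mixes a scaffold with chromosome 17 in its coordinates for both and gives another strand for Hspa1b, so which copy its counts belong to is uncertain. Of the 50-base stretches of their transcripts, 60.4% in Hspa1a and 62.3% in Hspa1b occurred in another gene as well, chiefly in each other, so reads of one could be counted for the other. An exon of Hspa1a also overlaps Gm20481 on the opposite strand, and whether counting used strand is not given in the sources used here. Their counts were therefore summed. The sum gave a log2 fold change of 0.52 ± 0.229 (SE), with an edgeR unadjusted p of 0.0469 and an adjusted p of 0.498. Summed FPKM was 86.76, 52.43, 50.69 and 57.66 in knockout mice 1 to 4 and 55.27, 26.55, 35.63 and 39.5 in control mice 1 to 4. Within pairs of the same number the ratio was 1.57, 1.97, 1.42 and 1.46. Without knockout mouse 1 the summed log2 fold change was 0.30 (edgeR unadjusted p = 0.161).

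The promoters of the 2 copies are nearly identical as well, with 3 of 250 upstream bases different (98.8% identical, RefSeq, GRCm38.p6). A stretch of each is shown because it holds a pair of inverted GAA units, the core of the element that HSF1 binds, in capitals. The Hspa1a stretch is chr17:34972222-34972281 and the Hspa1b stretch is chr17:34959304-34959363, both on the minus strand.
Hspa1a: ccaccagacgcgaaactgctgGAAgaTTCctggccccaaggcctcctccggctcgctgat
Hspa1b: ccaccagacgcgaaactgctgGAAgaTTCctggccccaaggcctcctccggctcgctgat
The letters searched were GAANNTTC or TTCNNGAA, which read the same on both strands, and 15.1% of 32851 RefSeq promoters held a match, so a match of this kind is common and only a description.

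Hspa8 encodes the constitutive HSP70, HSC70, and had the highest level of the 9 genes. It was at 787.25, 820.34, 738.34 and 783.33 FPKM in the knockout mice and at 768.97, 748.23, 772.75 and 845.23 in the control mice. The 8 values lay within 1.14-fold of each other and the groups overlapped fully, with means of 782 ± 33.7 and 784 ± 42.4 FPKM (SD, n = 4 each; exact permutation p = 1). The edgeR log2 fold change was -0.18, with a 95% interval of -0.57 to 0.21, and it was -0.068 without control mouse 2 and -0.051 with the trend by transcript length removed. Of its 50-base stretches, 38.6% occurred in other annotated genes, mostly processed copies such as Gm15459.

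The inducible share of cytosolic HSP70 compares genes within a mouse and so needs no library scaling between mice. It is not free of the length trend, which differed by mouse and by gene. In control mouse 2 that trend was 0.26 in log2 value for Hspa8, -0.069 for Hspa1a and -0.075 for Hspa1b. A share with the trend removed was not calculated. Hspa1a and Hspa1b together made up 9.93%, 6.01%, 6.42% and 6.86% of the summed FPKM of Hspa1a, Hspa1b and Hspa8 in knockout mice 1 to 4. In control mice 1 to 4 they made up 6.71%, 3.43%, 4.41% and 4.46%. The share was higher in the knockout mouse of all 4 pairs, while control mouse 1 lay above knockout mice 2 and 3. This measure was chosen after the values were seen and is given without a test.

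**Figure D2:**
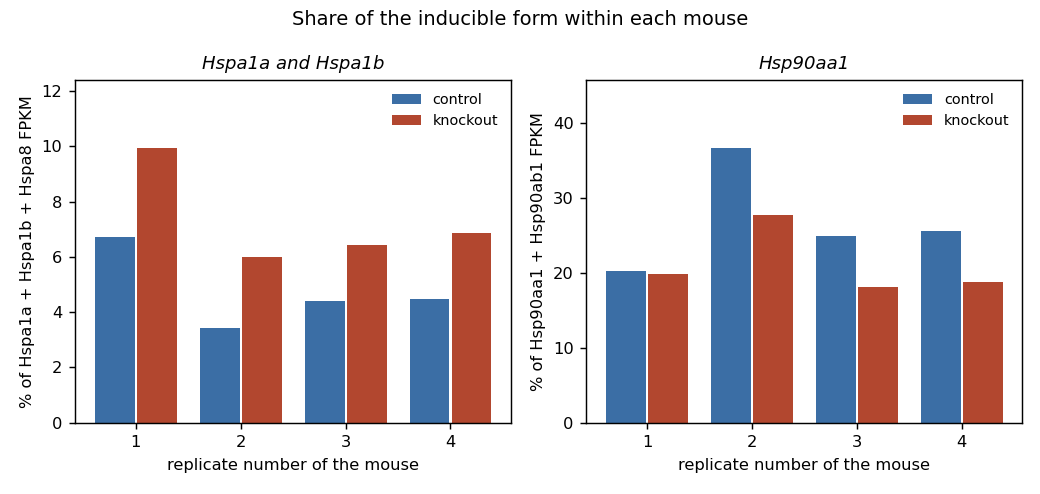
Share of the inducible form within each mouse, in percent of summed FPKM, for Hspa1a and Hspa1b among cytosolic HSP70 transcripts (left) and Hsp90aa1 among cytosolic HSP90 transcripts (right), as 1 bar per mouse by replicate number. The HSP70 share was higher and the Hsp90aa1 share lower in the knockout mouse of all 4 pairs.

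Hspa5 was at 200.55, 225.56, 221.55 and 251.04 FPKM in the knockout mice and at 213.33, 179.61, 238.96 and 230.89 in the control mice. The groups overlapped, with means of 225 ± 20.7 and 216 ± 26.3 FPKM (SD, n = 4 each; exact permutation p = 0.629), and the edgeR log2 fold change was -0.10 (95% interval -0.43 to 0.23), or -0.067 without control mouse 2, -0.064 without knockout mouse 1 and -0.064 with the length trend removed. Its promoter held the endoplasmic reticulum stress element, searched on both strands as CCAAT, any 9 bases and CCACG, which 0.119% of the promoters held. The stretch, chr2:34772020-34772049 on the plus strand with the 2 conserved ends in capitals, is shown since none of the other members with a promoter entry held this element. Hspa8, Hsp90aa1 and Hsp90ab1 had no promoter entry and were not searched for it or for GAA units.
Hspa5: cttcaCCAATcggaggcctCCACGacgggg

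Of the HSP70 partners, Hsph1 had a positive and Dnajb1 a negative fitted value, and neither passed the test. Hsph1 was at 16.72, 16.18, 16.59 and 18.69 FPKM in the knockout mice and at 14.32, 8.51, 14.56 and 16.89 in the control mice. Its knockout mean was 17.0 ± 1.12 and its control mean 13.6 ± 3.57 FPKM (SD, n = 4 each; exact permutation p = 0.114), with control mouse 2 low and control mouse 4 inside the knockout range. The edgeR log2 fold change of Hsph1 was 0.20 ± 0.143 (SE; unadjusted p = 0.198), and it was 0.090 with the trend by transcript length removed and 0.11 without control mouse 2. Dnajb1 was at 23.70, 27.64, 22.39 and 22.25 FPKM in the knockout mice and at 25.44, 22.70, 24.21 and 22.42 in the control mice. Its groups overlapped almost wholly (exact permutation p = 0.914), and the edgeR log2 fold change was -0.16 (95% interval -0.51 to 0.19), or -0.047 without control mouse 2. In TMM-scaled CPM, which applies the TMM scaling factor of each mouse, Dnajb1 was lower in the knockout mouse of all 4 pairs. In FPKM, which does not apply that factor, Dnajb1 was lower in 3 of 4. The exception was pair 2, with a ratio of 1.22 in FPKM and 0.84 in TMM-scaled CPM.

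The Hsph1 promoter held the pair of GAA units at chr5:149636351-149636380, minus strand. Downstream of the start, outside that stretch, it also held a run of 3 units, which was searched on both strands as GAA and TTC in alternation with any 2 bases between them, takes in 2 further pairs and occurred in 0.603% of promoters. No pair was found in the promoter entries of Dnajb1, which says only that these letters are not in that window. The Hsph1 stretch is shown for comparison with that of the HSP70 copies.
Hsph1: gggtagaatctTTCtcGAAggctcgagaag

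The cytosolic HSP90 genes had fitted values of opposite sign, and neither passed the test. Hsp90ab1, the constitutive form, was at 536.94, 499.94, 534.42 and 530.47 FPKM in the knockout mice and at 471.86, 309.07, 423.90 and 526.66 in the control mice. The knockout mice lay close together and control mouse 4 reached them, with means of 525 ± 17.2 and 433 ± 92.6 FPKM (SD, n = 4 each; exact permutation p = 0.0571). Without control mouse 2 the difference in means went from 92.6 to 51.3 FPKM, and in TMM-scaled CPM Hsp90ab1 was higher in 3 of 4 pairs, the exception being pair 4. In the edgeR fit the Hsp90ab1 log2 fold change was 0.14 ± 0.155 (SE; unadjusted p = 0.398). Hsp90aa1, the more stress-responsive form, was at 132.95, 192.47, 118.33 and 123.17 FPKM in the knockout mice and at 120.25, 178.65, 140.78 and 181.12 in the control mice. The groups overlapped (exact permutation p = 0.629), and the edgeR log2 fold change was -0.33 ± 0.262 (SE; unadjusted p = 0.238). With single mice left out it ranged from -0.51 to -0.099, the former without knockout mouse 2 and the latter without control mouse 2. Of the Hsp90aa1 stretches, 47.5% occurred in other annotated genes such as Gm12346, against 3.44% for Hsp90ab1.

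Within a mouse, Hsp90aa1 made up 19.8%, 27.8%, 18.1% and 18.8% of the summed FPKM of both genes in knockout mice 1 to 4 and 20.3%, 36.6%, 24.9% and 25.6% in control mice 1 to 4. It was lower in the knockout mouse of all 4 pairs, by little in the first pair, and the groups overlapped. As for HSP70, this share was chosen after the values were seen and has no test.

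Hspb1, the small heat shock protein HSP25 of the mouse, was at 400.14, 286.91, 267.07 and 304.63 FPKM in the knockout mice and at 339.11, 310.22, 271.94 and 233.57 in the control mice. Both mice numbered 1 were the highest of their group and the groups overlapped (exact permutation p = 0.571). The edgeR log2 fold change of Hspb1 was -0.064 ± 0.231 (SE), and it became 0.40 with the trend by transcript length removed (edgeR unadjusted p = 0.0890), or 0.41 with the replicate block as well (edgeR unadjusted p = 0.00508, adjusted p = 0.462). Its derived length of 854 bases was at the 5.21 percentile of all genes, and the trend added 1.05 to its log2 value in control mouse 2. The value was also above 0, with no correction, at 0.12 without control mouse 2 and at 0.010 without knockout mouse 3. Of its stretches, 48.8% also occurred in Hsp25-ps1, a pseudogene. Its promoter held 2 pairs of GAA units, shown at chr5:135887794-135887853 on the plus strand.
Hspb1: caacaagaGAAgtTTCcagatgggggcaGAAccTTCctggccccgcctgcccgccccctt

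**Figure D3:**
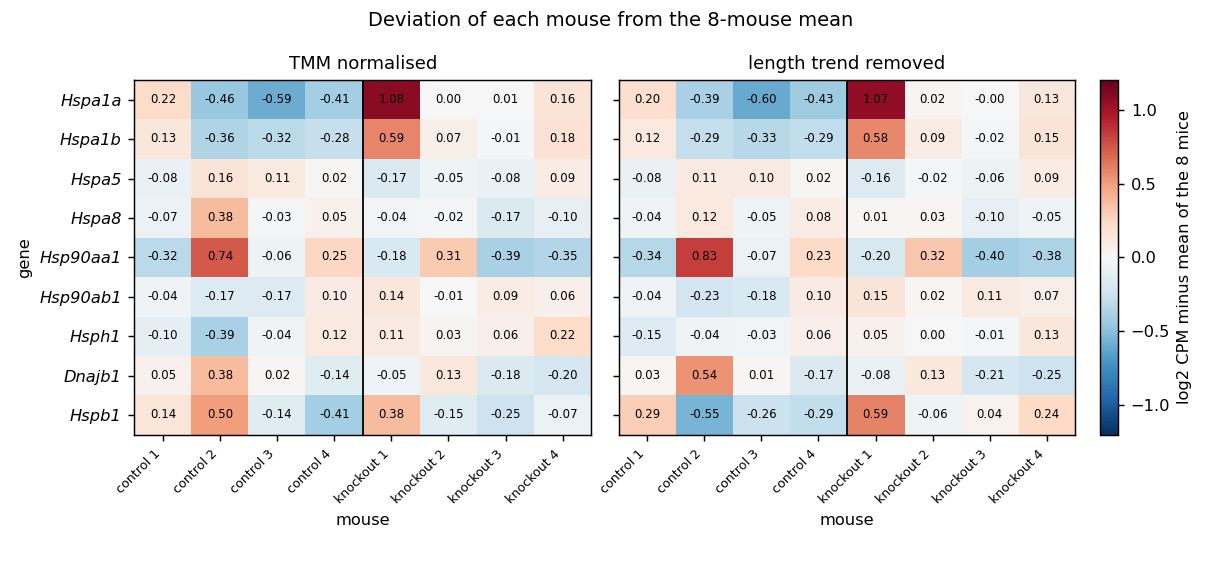
Log2 CPM of each chaperone gene in each mouse minus the mean of the 8 mice, after TMM scaling (left) and with the trend by transcript length removed as well (right), red above and blue below the mean. Hspa1a and Hspa1b changed little between the panels, whereas Hspb1 in control mouse 2 went from above to below the mean.

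Across the 9 genes, none passed an adjusted p of 0.05 in edgeR, where 0 of 17124 genes did (0%). At an unadjusted edgeR p under 0.05 there were 2, Hspa1a and Hspa1b, both higher in the knockout mice, against 8.36% of all genes in either direction and 2.45% in the higher direction. With the replicate block the same 2 genes were below that p, against 3.52% of genes in the higher direction. These 2 share reads and are not separate measurements. In DESeq2, 10 genes passed the adjusted threshold and none of the 9 was among them. By count, 4 members had a higher and 5 a lower fitted value, with a median log2 fold change of -0.064 beside 0.026 over all genes tested. On log2(FPKM + 1), limma gave 0.75 for Hspa1a (unadjusted p = 0.0267) and 0.56 for Hspa1b (unadjusted p = 0.0230), both with an adjusted p of 0.457, where 6.55% of genes had an unadjusted p under 0.05, and no member passed. That scale understates the change of low genes.

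In FPKM, 4 of the 9 genes were higher in the knockout mouse of all 4 pairs, where 22.2% of 15970 genes were, and none was lower in all 4, where 10.2% were. In TMM-scaled CPM, Hsp90ab1 was not among them and Dnajb1 was lower in all 4. For no member were the groups without overlap, where 7.37% of genes had none and 5.45% were wholly higher in the knockout mice. The mean FPKM of Hspa5, Dnajb1 and Hspb1 was slightly higher in the knockout mice while their edgeR value was negative, so no direction is given for these 3.

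**Figure D4:**
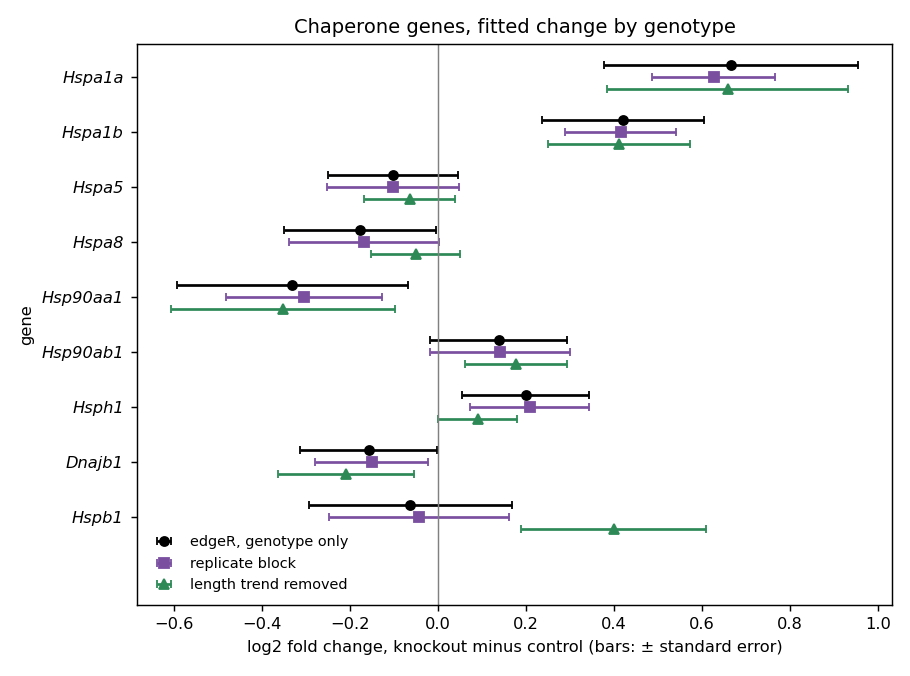
Fitted log2 fold change (knockout minus control) of each chaperone gene with its standard error, from edgeR with genotype alone (black circles), with the replicate number as a block (purple squares) and with the trend by transcript length removed (green triangles). Hspa1a and Hspa1b lay above 0 in all 3 fits, and Hspb1 moved from -0.064 to 0.40.

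By mean FPKM over the 8 mice the order was Hspa8 (783), Hsp90ab1 (479), Hspb1 (302), Hspa5 (220), Hsp90aa1 (148), Hspa1b (28.8), Dnajb1 (23.8), Hspa1a (21.8) and Hsph1 (15.3). The first 5 kept their order in 7 or 8 of the 8 mice at each step. The last 4 were not separated by more than their spread, each lying above the next in 6 of 8 mice. The 2 exceptions at each step fell in 1 group, control mice for Hspa1b over Dnajb1 and for Hspa1a over Hsph1, and knockout mice for Dnajb1 over Hspa1a. By group mean, Hspa1a (27.6) lay above Dnajb1 (24.0) in the knockout mice, and Dnajb1 (23.7) above Hspa1b (23.3) in the control mice. The spread over the 8 mice of both groups also differed by gene, from a coefficient of variation of 4.53% in Hspa8 and 7.94% in Dnajb1 to 46.7% in Hspa1a. The Hspa1a figure takes in the difference between the group means and the high knockout mouse 1 (43.68 FPKM).

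The wider chaperone network was read from lists chosen by family. Of 83 other chaperone, co-chaperone and stress response genes, 29 had a higher and 54 a lower fitted value (65.1% lower, beside 47.5% of all genes tested), none passed the adjusted threshold in edgeR, and the median log2 fold change was -0.099, beside 0.026 over all genes. With the trend by transcript length removed, 39 were higher and the median was -0.037. At an unadjusted edgeR p under 0.05 there was 1, Hsbp1, which encodes a protein that binds heat shock factor, at -0.67 (edgeR unadjusted p = 0.0483, lower in all 4 pairs), or -0.19 with the length trend removed, where 5.91% of all genes were lower at that p. With the replicate block there were 5, each with an adjusted p of 0.405. They were Bag3, which was higher, and Sdf2l1, Hspe1, Hsbp1 and Cacybp, which were lower, against 3.52% and 6.54% of all genes. With the length trend removed and no block, Sdf2l1 was at -0.096, Cacybp at -0.50 and Bag3 at 0.40. Bag3, a nucleotide exchange factor that works with HSP70 and small heat shock proteins, was at 24.2 to 31.6 FPKM in the knockout mice and 11.4 to 25.0 in the control mice, higher in all 4 pairs, with a log2 fold change of 0.38 (edgeR unadjusted p = 0.0634, or 0.0237 with the replicate block). Hsf1 itself had a log2 fold change of 0.15 (edgeR unadjusted p = 0.299).

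Among the chaperonins, the ring-shaped folding machines and their partner Hspe1, 9 of 10 had a lower fitted value, beside the 47.5% of all genes, and the median was -0.31, or -0.14 with the length trend removed. Hspe1 went from -0.66 to -0.037 with that correction. Of 24 endoplasmic reticulum chaperone and unfolded protein response genes 17 had a lower fitted value, beside the same 47.5%, with a median of -0.10. Hsp90b1, the HSP90 of that compartment, was at -0.14 (edgeR unadjusted p = 0.457). The cold-inducible Rbm3 was at -0.78 and lower in the knockout mouse of all 4 pairs (edgeR unadjusted p = 0.0659, or 0.0121 with the replicate block), and at -0.34 with the length trend removed. Cirbp was at -0.19, or 0.13 with the length trend removed, and its FPKM was higher in the knockout mouse of 3 of 4 pairs. Of the immediate early genes, Egr1 was at 0.90 (edgeR unadjusted p = 0.0209) and Ier3 at -0.73 (edgeR unadjusted p = 0.0278), each with an adjusted p of 0.498. With the length trend removed they were at 0.85 and -0.25.

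**Figure D5:**
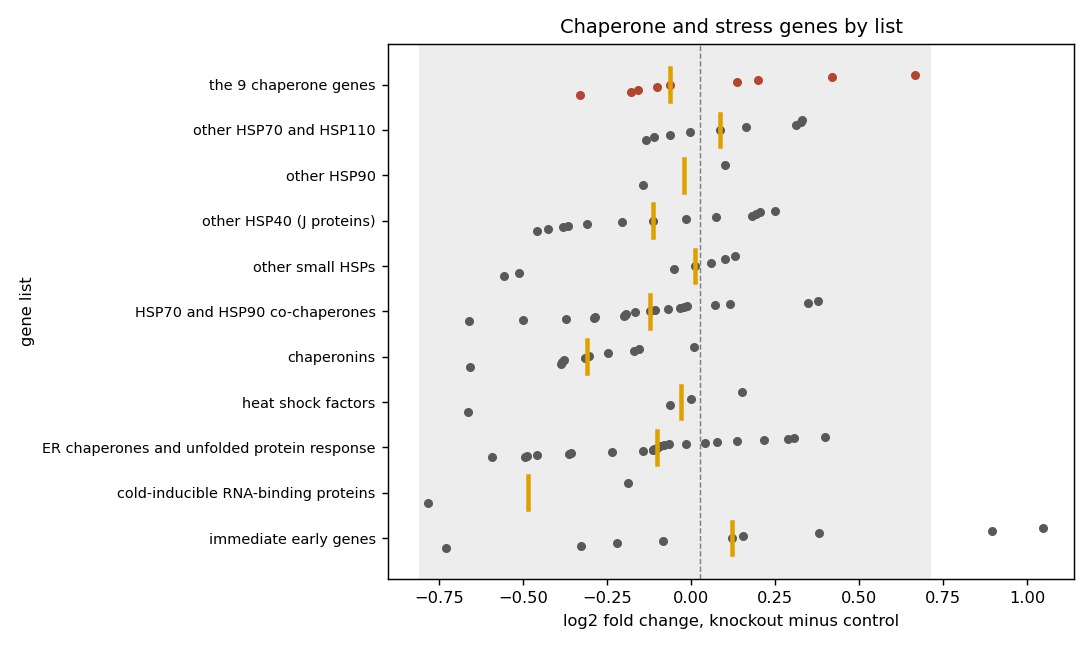
Fitted log2 fold change (knockout minus control, edgeR) of the 9 chaperone genes (red) and of the genes of each other list (grey), with 1 point per gene, yellow bars for list medians, a dashed line for the median of all genes and shading from the 5th to the 95th percentile of all genes. The chaperonin median of -0.31 lay to the left of the members' median of -0.064.

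The genes whose pattern over the 8 mice was most like the mean of Hspa1a, Hspa1b, Dnajb1 and Hsph1 were sought among 13125 genes outside the lists. These 4 did not share a pattern, since Dnajb1 ran against each of the others in log2 CPM (Pearson r from -0.906 with Hsph1 to -0.278 with Hspa1a over 8 mice, a description without a p), and their mean was highest in knockout mouse 1. The nearest was Xirp1, a striated muscle protein, with a Pearson r of 0.985 and a Spearman rho of 0.905 over 8 mice. It was at 12.2 to 46.5 FPKM in the knockout mice and 3.67 to 16.3 in the control mice. Slc38a3 (r = 0.938), Sfi1 (r = 0.927), Klhl40 (r = 0.917) and Dedd2 (r = 0.913) came next. These values were chosen as the highest of many, share libraries and depth, and are given without a p.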

How the data were processed

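RNA was sequenced by BGI as single-end reads from poly(A)-selected libraries, filtered with SOAPnuke and aligned with HISAT, per the submitters' processing notes and the study's methods. The counting program, genome build and annotation are not given in the sources used here. The deposited table gives, per mouse, estimated counts (69.0% of those above 0 were not whole numbers, so they were rounded) and FPKM values computed by the authors. The 16 per-sample columns of TPM and normalised counts, 40 group means and 51 columns of the authors' own fold changes and p-values were not used.

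After removal of genes whose counts summed to less than 10, the remaining genes were tested with edgeR 4.0.16 (TMM, quasi-likelihood, genotype only, R 4.3.3), with Benjamini-Hochberg adjustment over all genes. FPKM was tested with limma 3.58.1 on log2(FPKM + 1), leaving out mean FPKM below 0.1, and with two-sided exact permutation tests over all 70 assignments. Alternatives were DESeq2 1.42.0, other scaling and filters, a replicate block, removal of a lowess trend by derived transcript length, a muscle covariate and each mouse left out. The scripts were tested on simulated data.

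Same-numbered mice deviated together from their group means (r = 0.160 to 0.405 over 13298 genes, all above 0.1), which comes from the data and not from a stated pairing. Knockout mouse 4 correlated more with control mouse 1 (0.426) than with its own number, and control mouse 4 more with knockout mouse 3 (0.226), so number 4 is the least certain pair.

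The members and gene lists were chosen with earlier results of these data known. The text names every member, the summed HSP70 copies, Tbx20, genes among the 3 smallest unadjusted p-values of each list, Hsf1, Hsp90b1, Cirbp and Rbm3, and the 5 nearest pattern neighbours. Promoter sequences are from RefSeq (GRCm38.p6), positions and transcripts from GENCODE vM21 (GRCm38).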

Additional observations from a re-analysis of the deposited data

Results flagged for a closer look

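In 4 of 38 groups of 4 mice, 1 mouse lay farther from the others than Dixon's 95% critical value allows, where chance gives about 1.9. Hspa1a in knockout mouse 1 was at 43.68 FPKM, against 21.33 to 23.99 in the other knockout mice. The same mouse was at 116.352 TMM-scaled CPM for Hspa1a, against 55.1 to 61.4. Hspa1b in control mouse 1 was at 83.9465 TMM-scaled CPM, against 59.6 to 63.1 in the other control mice. The TMM scaling factor of control mouse 2 was 0.73479, against 1.01 to 1.04.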

How the results depend on the processing

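No chaperone gene passed an adjusted p of 0.05 in any alternative run. Over all genes the count stayed at 0 in edgeR in every alternative, whereas DESeq2 called 10 (smallest adjusted p 0.000225). With the replicate block, edgeR called 0 genes (smallest adjusted p 0.405), and 1723 genes against 1431 had an unadjusted p under 0.05. The blocked log2 fold change was 0.63 for Hspa1a (unadjusted p = 0.0034), 0.41 for Hspa1b (unadjusted p = 0.0153) and 0.51 for their sum (unadjusted p = 0.00746), and the block changed no adjusted call. These p-values rest on the replicate numbers as pairs, which were not stated to be pairs. The median of the 9 genes, -0.064, became 0.090 with the length trend removed and 0.091 with the block as well, and ranged from -0.12 to 0.11 with single mice left out, the highest without control mouse 2. The cause was not tested. In 17 alternatives 8 of the 9 genes kept the sign of their edgeR value in all, and Hspb1 in 13, with values from -0.22 to 0.41. With single mice left out, Hspa1a ranged from 0.33 to 0.88, Hspa1b from 0.27 to 0.55 and their sum from 0.30 to 0.68, each lowest without knockout mouse 1. With 4 mice a group, the interval of Hspa1a ran from 0.014 to 1.32, so differences of this size are poorly bounded.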
